A study of Mus musculus with 18 samples.

Results

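The 49 genes described here are interferon-stimulated genes (ISGs) of mouse bone marrow mesenchymal stem cells (MSCs). They were taken by symbol from a fixed list, and all 49 were found among the 27179 genes of the expression table and had a mean normalized read count of at least 10 over the 18 libraries, as did 14353 genes in all. RNA was sequenced from 3 groups of 6 libraries each, all from C57BL6 mice and all labelled as day 7. Young MSCs came from male mice aged 6 weeks, and old MSCs from male mice aged 18 to 24 months, both used at passages 2 to 5 and both without treatment. Rejuvenated old MSCs were old cells that shared a well with young MSCs for 7 days, with 100000 old cells per well and a membrane with 0.4 µm pores that let secreted factors through and kept the cells apart. The labels call the libraries biological replicates without saying whether they came from separate mice or cultures, so the p-values measure the spread between these libraries, which may be partly technical. No library of old MSCs placed with other old MSCs was analysed here, so the presence of young cells and the presence of a second well compartment cannot be told apart.

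Type I interferons bind a receptor made of IFNAR1 and IFNAR2, which activates the kinases JAK1 and TYK2. Their signal leads to ISGF3, a complex with STAT2 and the DNA-binding IRF9, which binds the interferon-stimulated response element (ISRE) in the promoters of ISGs. The products block viruses at many steps, and some of them, such as STAT2, IRF9 and IRF7, are parts of the pathway itself, while USP18 and SOCS1 restrain it. MSCs and other stromal cells carry the receptor and hold a number of ISGs at a standing level without added interferon.

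The promoters of 5 members are shown because they hold the ISRE in different numbers and orientations, and because these genes return in the comparisons below. The sequences are from RefSeq (GRCm38.p6) and cover the 250 bases before a listed transcription start of each gene. They are written 5′ to 3′ on the strand of the gene. The Ifit3 window lies inside the annotated gene (chr19:34583119-34588982), and Isg20 had 3 windows, not all of which are shown. Capitals mark matches to the core letters of the ISRE, which were searched as GAAA followed by any 2 bases and GAAA, and on the opposite strand as TTTC, any 2 bases and TTTC.
Isg15: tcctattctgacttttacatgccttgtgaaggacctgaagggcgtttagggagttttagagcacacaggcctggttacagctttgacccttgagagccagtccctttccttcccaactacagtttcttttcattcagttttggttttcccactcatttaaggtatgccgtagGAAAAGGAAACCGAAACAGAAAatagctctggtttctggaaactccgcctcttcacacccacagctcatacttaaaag
Bst2: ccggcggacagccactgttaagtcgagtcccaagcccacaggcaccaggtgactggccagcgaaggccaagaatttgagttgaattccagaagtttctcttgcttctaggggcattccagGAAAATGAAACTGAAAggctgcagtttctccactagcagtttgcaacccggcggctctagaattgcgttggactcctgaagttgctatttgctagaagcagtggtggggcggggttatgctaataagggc
Ifit3: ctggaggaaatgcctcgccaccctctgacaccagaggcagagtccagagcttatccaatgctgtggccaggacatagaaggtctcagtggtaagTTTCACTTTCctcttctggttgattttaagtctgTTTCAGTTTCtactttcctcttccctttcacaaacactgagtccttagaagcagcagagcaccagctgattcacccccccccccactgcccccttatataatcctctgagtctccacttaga
Rsad2: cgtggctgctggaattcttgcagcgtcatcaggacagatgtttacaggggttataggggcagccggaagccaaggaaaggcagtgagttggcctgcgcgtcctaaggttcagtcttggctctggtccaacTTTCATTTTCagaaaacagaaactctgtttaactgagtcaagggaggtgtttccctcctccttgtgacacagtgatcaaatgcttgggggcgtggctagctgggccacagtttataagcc
Isg20: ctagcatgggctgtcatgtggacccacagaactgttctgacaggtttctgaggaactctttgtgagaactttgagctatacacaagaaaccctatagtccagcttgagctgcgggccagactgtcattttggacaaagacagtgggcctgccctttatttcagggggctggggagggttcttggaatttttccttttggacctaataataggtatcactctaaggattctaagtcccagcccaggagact
The Isg15 window (chr4:156200819-156201068, minus strand) held 3 overlapping matches, which began 78, 72 and 66 bases before the start. The Bst2 window (chr8:71537473-71537722, minus strand) held 2 overlapping matches on the strand of the gene. Ifit3 (chr19:34583279-34583528, plus strand) held 2 separate matches and Rsad2 (chr12:26456453-26456702, minus strand) held 1, all on the opposite strand. Isg20 (chr7:78913174-78913423, plus strand) held none in these letters. Over windows of 300 bases, which add 50 bases after the start, 20 of the 39 members with a promoter entry held a match on either strand (51.3%), against 3.78% of the 10951 tested genes with an entry. The letters TTCNNNGAA, the core of the interferon gamma-activated site (GAS), stood in 13 of the 39 (33.3%), against 8.19% of those tested genes, and both kinds of match may share bases. Oas2, Zbp1, Rtp4, Mx1, Mx2, Parp9, Usp18, Iigp1, Dhx58 and Parp14 had no entry. A match is a description of the letters and not a shown site of binding.

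The libraries held 22936251 to 29559194 reads on genes, and every pair of replicates differed by more than counting error (chi-square per degree of freedom of 2.61 to 23.6). Before the comparisons, 2 libraries and 1 set of markers need their values given. In old replicate 2 the median member stood 1.20 above the mean of the old group on the log2 scale, while the median of all tested genes stood at -0.00223. Rejuvenated old replicate 1 held RNA of genes that were read in young and not in old MSCs. Over 28 such genes outside the lists (mean above 300 in young and below 3 in old MSCs, chosen after their values were seen), its median level was 2.51% of the young mean, against 0.0340% to 0.204% in the other 5 rejuvenated libraries. The part of this RNA in the results was not tested, and fits without the whole library are given below. Of 19 tested macrophage markers, 18 were lower and 1 was higher in young than in old MSCs, with summed normalized counts of 1061 to 1173 in young, 18908 to 23388 in old and 18951 to 22921 in rejuvenated old libraries. Ptprc, the leukocyte marker CD45, and Adgre1, the F4/80 antigen, were at 0 in all 6 young libraries. All 12 stromal markers were expressed, while none of 8 lymphocyte markers reached a mean of 10. In bulk RNA, fewer cells of a type and less RNA per cell cannot be told apart, and the part of these cells in the differences between young and old MSCs was not tested.

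The ISGs differed among libraries of the same group far more than most genes did, and nearly all of them differed together. The SD of log2(normalized count + 1) over the 6 libraries had a median over the members of 0.40 for young MSCs, 0.72 for old MSCs and 0.49 for the rejuvenated cells, against 0.09, 0.09 and 0.12 over all tested genes. In old MSCs, 40 of the 49 members lay above the 90th percentile of all genes, as did 28 in young and 33 in rejuvenated old MSCs. The 7 members with the smallest SD in young and in old MSCs were both receptor chains, Irf1, Irf2, Ifitm1, Ifitm2 and Isg20.

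**Figure D1:**
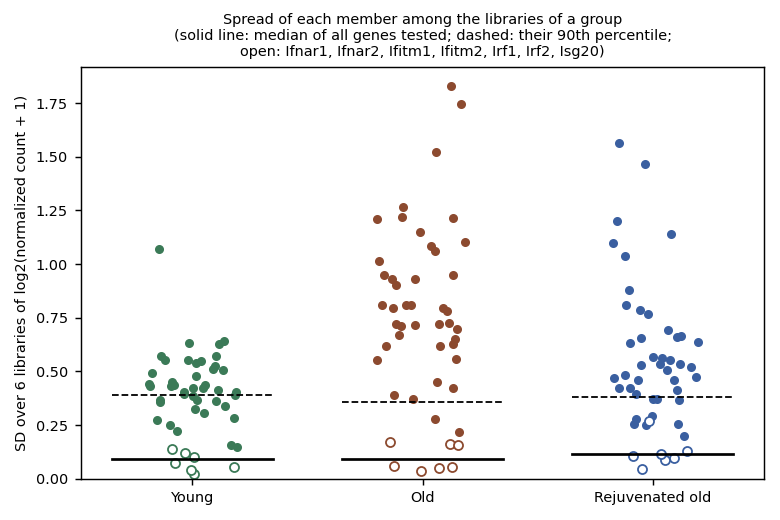
SD over 6 libraries of log2(normalized count + 1) for each of the 49 members (points, spread sideways at random) in young, old and rejuvenated old MSCs, with the median (solid) and 90th percentile (dashed) of all tested genes. In old MSCs 40 members lie above the dashed line, and the open points, Ifnar1, Ifnar2, Ifitm1, Ifitm2, Irf1, Irf2 and Isg20, lie below it.

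Old replicate 2 was the highest of the old libraries for 46 of 49 members and old replicate 6 the lowest for 41. Young replicate 4 was the highest young library for 41 members. Rejuvenated old replicate 1 was the highest of its group for 42 and rejuvenated old replicate 2 the lowest for 42. Measured against the mean of its own group, the median member stood between -0.77 and 1.20 on the log2 scale in old, between -0.34 and 0.53 in young and between -0.65 and 0.71 in rejuvenated old libraries. The summed macrophage markers of old replicate 2 (20010) lay inside the range of the other old libraries. Within groups, the level of a member followed the median of the other members with a median Pearson r of 0.98 over the 18 libraries, and 38 members had an r of at least 0.9. These values describe 18 libraries in which all genes share the same depth and scaling. The members that did not follow the others were Ifnar1 (r = -0.40), Ifitm1 (-0.32), Ifitm2 (-0.24) and Ifnar2 (0.08). Within the rejuvenated old libraries alone, Irf1 (r = -0.17) and Isg20 (0.25) did not follow the others either.

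**Figure D2:**
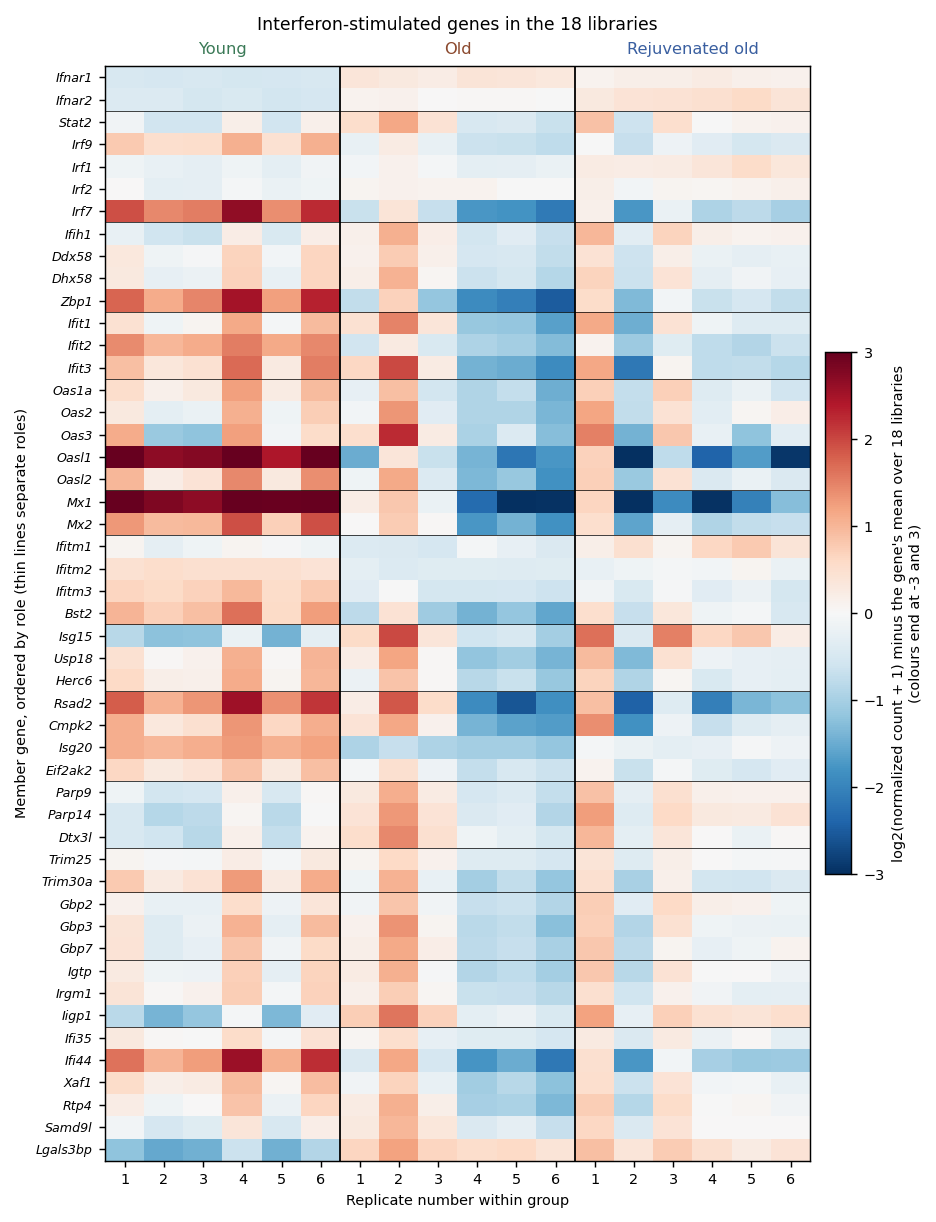
Level of each of the 49 members (vertical, ordered by role) in the 18 libraries (horizontal, replicate number within group), as log2(normalized count + 1) minus the mean of the gene over all libraries, with colours ending at -3 and 3. Whole columns are redder or bluer than their neighbours, above all old replicates 2 and 6 and rejuvenated old replicates 1 and 2, while Irf7, Zbp1, Oasl1, Mx1 and Ifi44 are red in all young libraries.

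Per kilobase of exon the highest member was Ifitm3, an inhibitor of virus entry, at 58446 normalized counts per kilobase for young MSCs, 26918 for old MSCs and 29682 for the rejuvenated cells. In young MSCs Ifitm2 (18590) and Bst2 (16726) came next on this scale, and Oas3 (5.03) was the lowest. In rejuvenated old MSCs Mx1 stood at 5.16 per kilobase, against 113 in young MSCs.

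Comparing young with old MSCs asked how the standing ISG level differed between cells of young and old donors. The groups also differed in macrophage markers and in the medians of some chromosomes, from which donor age cannot be told apart. The MX and IFITM groups, Isg20, Rsad2, Irf7, Irf9 and Zbp1 were higher in young cells, by up to 4.50 on the log2 scale for Mx1, none of the 3 GBP genes passed the test, and the receptor chains, Isg15 and a few others were lower. Of 49 members 25 were higher and 7 lower in young MSCs (65.3% called), against 85.7% of all tested genes, of which 41.6% were higher and 44.1% lower. Called here means an adjusted p below 0.05 by limma, with the Benjamini-Hochberg adjustment over all 14353 tested genes. The median log2 fold change was 0.53 over the members and -0.02 over all genes, and the median standard error was 0.27 over the members and 0.06 over all genes. The young and old libraries did not overlap for 13 members, 10 above and 3 below, against 73.9% of all genes (35.7% above and 38.2% below).

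**Figure D3:**
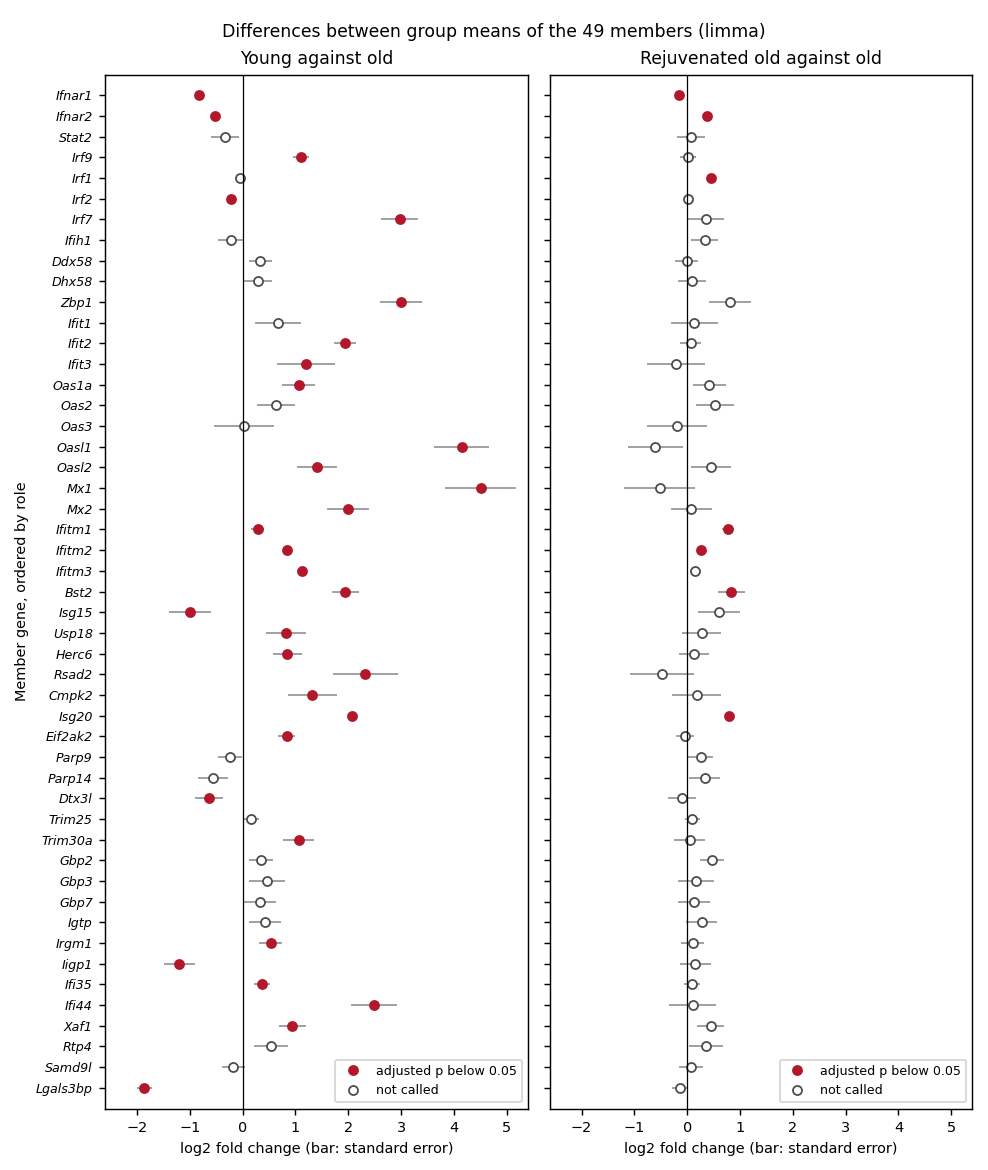
Log2 fold change of the 49 members (vertical, ordered by role) in young against old MSCs (left) and rejuvenated old against old MSCs (right), with standard errors as bars, filled where the adjusted p is below 0.05. On the left 25 members are filled right of zero and 7 left of it; on the right 6 and 1 are filled, and the other 42 are open.

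The receptor chains were lower in young than in old MSCs. Ifnar1 (chr16:91485032-91510523) had normalized counts of 1633, 1687 and 1707 (lowest, median and highest library) in young and 2777, 2997 and 3078 in old MSCs, a log2 fold change of -0.82 ± 0.03 (SE). Ifnar2 (chr16:91372783-91405589), its neighbour, had 1472, 1526 and 1616 in young and 2122, 2208 and 2324 in old MSCs, a change of -0.53 ± 0.04. The groups did not overlap for either gene. The 446 tested genes of chromosome 16 had a median log2 fold change of -0.75 in this comparison, and those of chromosomes 7 and 12 had 0.61 and -0.46. With the chromosome median removed in each library, Ifnar1 stood at -0.05 (adjusted p = 0.177) and Ifnar2 at 0.24 (adjusted p = 1.9e-05), so the direction for Ifnar2 turned.

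Among the transcription factors, the largest difference was that of Irf7, which drives the second wave of interferon genes. Its counts were 4869, 6132 and 11550 in young and 419, 838 and 2399 in old MSCs, a change of 2.97 ± 0.35 (adjusted p = 4.7e-08). Every young library stood above every old library. With the chromosome median removed Irf7 stood at 2.48. Irf9, the DNA-binding part of ISGF3, was higher too, with 2706, 3120 and 4145 against 1163, 1473 and 2351 (1.11 ± 0.15), and its groups did not overlap. Stat2, its partner, had 4145, 4959 and 7010 in young and 3929, 6450 and 13912 in old MSCs, and the difference of -0.34 ± 0.27 did not pass the test (adjusted p = 0.234). Irf2, a repressor of ISGs, was lower in young MSCs (-0.22 ± 0.05), and Irf1, which acts on many of the same promoters, stood at -0.06 ± 0.06 (adjusted p = 0.405).

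Among the 4 RNA and nucleic acid sensors, Zbp1 alone was called. ZBP1 binds Z-form nucleic acid and can start cell death. Zbp1 counts were 1023, 1438 and 2666 in young and 82.7, 168 and 752 in old MSCs (3.00 ± 0.40, adjusted p = 3.0e-07), with no overlap. The RIG-I-like receptors did not pass the test, with log2 fold changes of 0.34 for Ddx58, 0.29 for Dhx58 and -0.22 for Ifih1. Without old replicate 2, Ddx58 (0.51, adjusted p = 0.0162) and Dhx58 (0.52, adjusted p = 0.0404) did.

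In the direct antiviral families the differences were graded. The MX proteins are GTPases that trap viral components. Mx1 had 294, 417 and 644 in young and 3.01, 23.5 and 78.8 in old MSCs (4.50 ± 0.67, adjusted p = 1.5e-06). The old counts of Mx1 went down to a few reads, and all lay below the young ones. Mx2 had 718, 975 and 1685 against 124, 304 and 749 (1.99 ± 0.39), and the highest old library (replicate 2) stood above the lowest young library. With the chromosome median removed Mx1 stood at 5.27 and Mx2 at 2.76. Some enzymes of the OAS family, though not all its members, make the activator of RNase L. In this family Oasl1 was the most different, with 191, 288 and 376 in young and 7.02, 12.3 and 45.3 in old MSCs (4.15 ± 0.52, adjusted p = 1.3e-07). Oasl2 (1.41 ± 0.38) and Oas1a (1.06 ± 0.31) were higher too, while Oas2 stood at 0.63 ± 0.36 and Oas3 at 0.02 ± 0.57. The IFIT proteins bind foreign RNA ends, and Ifit2 was higher in young MSCs (1.94 ± 0.20) with no overlap, while Ifit1 stood at 0.67 ± 0.44. Without old replicate 2 both Oas2 (0.97) and Ifit1 (1.02) passed the test.

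Rsad2, which encodes viperin and makes a chain-terminating nucleotide, had 269, 404 and 770 in young and 21.1, 93.6 and 480 in old MSCs (2.32 ± 0.61, adjusted p = 0.0013). The young and old ranges of Rsad2 overlapped through old replicate 2. Its neighbour Cmpk2, a nucleotide kinase, was higher by 1.32 ± 0.46 (0.96 by DESeq2, adjusted p = 0.0816, which ends the call), and Eif2ak2, the translation-blocking kinase PKR, by 0.83 ± 0.17. Isg20, an RNA exonuclease, had 1187, 1273 and 1439 against 266, 303 and 369 (2.08 ± 0.07, adjusted p = 2.6e-18). Isg20 combined a large difference with a small spread in every group. With the median of its chromosome, chromosome 7, removed, Isg20 stood at 1.59. All 4 members of the IFITM and tetherin group were higher in young MSCs. Bst2, or tetherin, which holds budding virus on the cell, had 10791, 13999 and 22701 against 2455, 3340 and 9771 (1.94 ± 0.26), Ifitm3 stood at 1.13 ± 0.09 and Ifitm2 at 0.84 ± 0.04. With the chromosome median removed the last 2 stood at 0.63 and 0.34. Ifitm1 (0.28 ± 0.12, adjusted p = 0.0276) turned to -0.21 with the chromosome median removed, and lost its call when any of 5 libraries was left out (young replicate 1 or 4, old replicate 2, 3 or 6), at 0.25 to 0.27.

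The ISG15 group split. Isg15 is a ubiquitin-like tag, HERC6 attaches it in mice and USP18 removes it. Isg15 had 1021, 1353 and 2347 in young and 1328, 2696 and 10642 in old MSCs (-0.99 ± 0.40, adjusted p = 0.0249), whereas Usp18 had 1644, 1991 and 3373 against 610, 1217 and 3672 (0.82 ± 0.38, adjusted p = 0.0467). Herc6 was higher by 0.84 ± 0.28. The Isg15 call was lost without young replicate 5, old replicate 1 or old replicate 2, at -0.90 to -0.62. The Usp18 call was lost without any of 9 libraries (young replicates 1, 4 and 6, old replicates 4 to 6, rejuvenated old replicates 4 to 6), at 0.62 to 0.82. It was also lost by edgeR (0.59, adjusted p = 0.139), by DESeq2 (0.59, adjusted p = 0.19), with the chromosome median removed (0.64), with the replicate block (adjusted p = 0.0581), with a single prior variance and when genes of low level were kept in the fit.

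Lgals3bp, a secreted galectin-binding glycoprotein, was the member that was most reduced in young MSCs (-1.86 ± 0.15), and its groups did not overlap. Iigp1, an immunity-related GTPase, was lower too (-1.20 ± 0.30), while Irgm1 of the same family was higher (0.53 ± 0.22). Parp14, Dtx3l and Parp9 lie together on chromosome 16, the last 2 overlapping head to head, and stood at -0.56, -0.64 and -0.24, of which Dtx3l was called. Parp14 was called lower by edgeR (-0.69, adjusted p = 0.0335). It was also called when any of 4 libraries was left out (young replicate 4 or 6, old replicate 4 or 6), at -0.75 to -0.66. With the chromosome median removed, all 3 turned, Dtx3l to 0.13, Parp14 to 0.20 and Parp9 to 0.53 (adjusted p = 0.0373), and Rtp4, also on chromosome 16, went from 0.53 to 1.30 (adjusted p = 0.000768). Ifi44 had 1373, 1860 and 4055 in young and 153, 361 and 1533 in old MSCs (2.49 ± 0.44, adjusted p = 1.8e-05), and the groups overlapped through old replicate 2. None of the 3 GBP genes, interferon-induced GTPases, was called (0.33 to 0.46). Without old replicate 2, the highest old library for each, all 3 were (0.56 to 0.77). The calls of Ifit3 (1.20 ± 0.55), Dtx3l, Ifi35 (0.36) and Irgm1 were each lost on leaving out single libraries. For Ifit3 these were 10 libraries (young replicates 1, 4 and 6, old replicates 4 to 6, rejuvenated old replicates 3 to 6), at 0.89 to 1.20, and by edgeR and DESeq2 on the recovered reads Ifit3 stood at 0.64 in both (adjusted p = 0.269 and 0.355). For Dtx3l they were 7 (young replicates 1, 2, 3 and 5, old replicates 1 to 3), at -0.62 to -0.40, for Ifi35 also 7 (young replicates 1, 4 and 6, old replicates 3 to 6), at 0.29 to 0.34, and for Irgm1 5 (young replicates 4 and 6, old replicates 4 to 6), at 0.41 to 0.46. By DESeq2 the calls of Ifi35 (0.34) and Irgm1 (0.46) were lost as well, and by edgeR that of Irgm1 (0.46).

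Comparing rejuvenated old with old MSCs asked how the ISGs differed after old cells had shared a well with young cells. Secreted factors of the young cells cannot be told apart here from the presence of a second well compartment. Few members passed the test, and those that did were mostly the ones with little spread between libraries. With a median standard error of 0.27 over the members and 0.06 over all genes, a member not called may still have changed. Bst2, Isg20 and Ifitm1 rose by 0.77 to 0.84 on the log2 scale, Irf1, Ifnar2 and Ifitm2 rose by less, and Ifnar1 fell. Of 49 members 6 were higher and 1 lower (14.3% called), against 41.6% of all tested genes, of which 21.0% were higher and 20.6% lower. The median log2 fold change was 0.14 over the members and 0.01 over all genes. The libraries did not overlap for 5 members, all above, against 22.0% of all genes (10.4% above and 11.6% below).

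**Figure D4:**
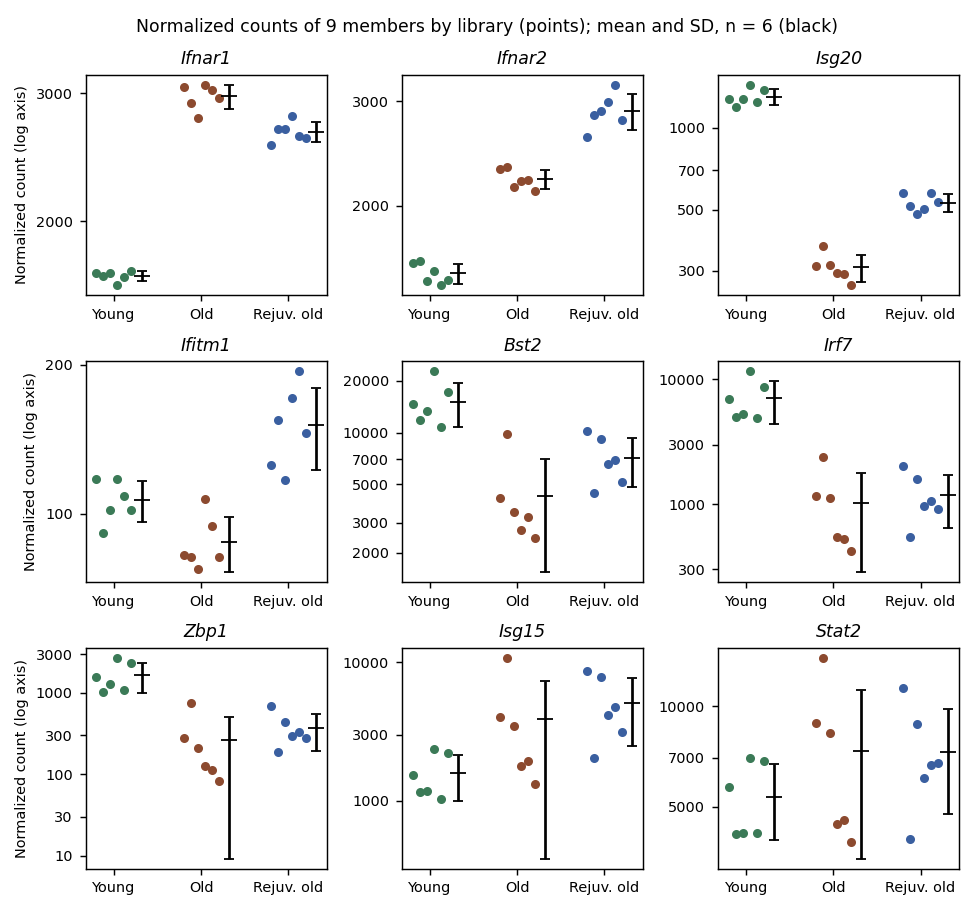
Normalized counts of 9 members in each library (points) on log axes, with mean and SD (black, n = 6) for young, old and rejuvenated old MSCs. Isg20, Ifnar2 and Ifitm1 of the rejuvenated old group lie above the old group in every library, whereas Bst2, Irf7, Zbp1, Isg15 and Stat2 overlap.

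The 2 receptor chains moved in opposite directions. Ifnar1 had 2546, 2646 and 2787 in rejuvenated old against 2777, 2997 and 3078 in old MSCs, a fall of 10.7% in the mean (-0.16 ± 0.03, adjusted p = 0.00013). Ifnar2 had 2609, 2866 and 3202 against 2122, 2208 and 2324, higher by 30.0% in the mean (0.38 ± 0.04, adjusted p = 1.5e-07). For Ifnar2 all rejuvenated libraries stood above all old ones, while for Ifnar1 the highest of the former just reached the lowest of the latter. Within each library the ratio of Ifnar2 to Ifnar1 was 0.878 to 0.963 in young, 0.716 to 0.798 in old and 1.03 to 1.22 in rejuvenated old MSCs, so the 3 groups did not overlap. This ratio, like that of Isg15 to Usp18, was chosen after its values were seen and is a description.

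Isg20 had 482, 525 and 579 in rejuvenated old against 266, 303 and 369 in old MSCs (0.79 ± 0.07, adjusted p = 4.1e-09). The rejuvenated libraries of Isg20 stood between the old and the young ones, without overlap on either side. Bst2 had 4460, 6758 and 10264 against 2455, 3340 and 9771 (0.84 ± 0.26, adjusted p = 0.013). Of the old libraries only replicate 2 reached the rejuvenated range of Bst2, and by DESeq2 on the recovered reads the gene stood at 0.72 (adjusted p = 0.0601). Ifitm1 had 117, 150 and 194 against 77.6, 82.3 and 107 (0.77 ± 0.12, adjusted p = 1.4e-05), and Ifitm2 had 7538, 8229 and 9356 against 6605, 6811 and 7141 (0.27 ± 0.04, adjusted p = 1.3e-05). Both IFITM genes were higher in all 6 rejuvenated than in all 6 old libraries. Irf1 had 1981, 2063 and 2498 against 1379, 1531 and 1853 (0.46 ± 0.06, adjusted p = 6.1e-06), also without overlap. The levels of Ifnar2, Irf1 and Ifitm1 in rejuvenated old MSCs were above those in young MSCs as well, by 0.90, 0.52 and 0.49. For Ifitm1 the rejuvenated old and young libraries overlapped. With the chromosome median removed the difference of Ifnar2 was 0.14 and that of Ifitm1 was 0.92. All 7 calls held when any single library was left out.

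Stat2, Irf9, Irf7 and the MX, OAS and IFIT genes did not pass the test. Stat2 had 4001, 6716 and 11328 in rejuvenated old MSCs (0.07 ± 0.27, adjusted p = 0.86), and Irf9 had 1229, 1509 and 1967 (0.02 ± 0.15). Irf7 had 546, 1009 and 2039 (0.35 ± 0.35). The counts of all 3 genes overlapped with those of old MSCs. Of the effectors, Mx1 had 2.83, 10.8 and 70.0 (-0.52 ± 0.67), Oasl1 had 1.89, 8.02 and 56.6 (-0.60 ± 0.52) and Rsad2 had 23.6, 52.5 and 245 (-0.48 ± 0.61). The highest of the 6 was rejuvenated old replicate 1 for each of these genes. Mx2 had 146, 266 and 623 (0.08 ± 0.39) and Ifi44 had 201, 329 and 945 (0.10 ± 0.44). Changes of this size were not detectable against these standard errors. Zbp1 had 188, 313 and 692 (0.82 ± 0.40, adjusted p = 0.107), Isg15 had 2021, 4451 and 8577 (0.60 ± 0.40, adjusted p = 0.241) and Usp18 had 647, 1401 and 3110 (0.27 ± 0.38), and all 3 overlapped with old MSCs.

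Old replicate 2 decided how many members were called. Without it 15 members were higher and 1 lower, the added ones being Zbp1 (1.21), Isg15 (0.97), Oas2 (0.86), Oasl2 (0.80), Oas1a (0.70), Gbp2 (0.68), Xaf1 (0.67), Ifih1 (0.55) and Ifitm3 (0.22). Without rejuvenated old replicate 1, Oasl1 was lower (-1.10, adjusted p = 0.0434) and the count was 6 higher and 2 lower. Without both libraries 9 members were higher and 1 lower, which added Zbp1 (1.00), Gbp2 (0.57) and Xaf1 (0.57) to the 7. The median over the members was 0.22 in that case, 0.39 without old replicate 2 alone, 0.0140 without rejuvenated old replicate 1 alone and -0.00419 without old replicate 6. Leaving out both libraries was chosen after seeing the data.

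Between rejuvenated old and young MSCs, a smaller share of ISGs than of all tested genes was called. The share without overlap of the libraries was smaller too, but the differences themselves were not smaller at the median. Ignoring sign, the median member differed by 0.64 on the log2 scale and the median tested gene by 0.58. The signed medians were -0.35 and 0.03, and the median standard errors were 0.27 for the members and 0.06 for all genes. Of 49 members 10 were higher and 19 lower in rejuvenated old than in young MSCs (59.2% called), against 85.6% of all genes, of which 44.1% were higher and 41.5% lower. The libraries did not overlap for 18 members, 4 above and 14 below, against 70.5% of all genes (36.5% above and 34.0% below). The largest differences were again those of Mx1 (-5.02 ± 0.67) and Oasl1 (-4.75 ± 0.52), followed by Rsad2 (-2.80), Irf7 (-2.62), Ifi44 (-2.38) and Zbp1 (-2.19), and for all 6 genes every rejuvenated library stood below every young library. Higher than in young MSCs were Lgals3bp (1.72), Isg15 (1.60), Iigp1 (1.36), Ifnar2 (0.90) and Ifnar1 (0.66). With the chromosome median removed Ifnar1 turned to -0.11 and Ifnar2 stood at 0.14.

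The ratio of Isg15 to Usp18 within each library varied less among libraries than the levels of both genes. Isg15 per Usp18 was 0.619 to 0.698 in young, 2.09 to 2.90 in old and 2.35 to 3.51 in rejuvenated old MSCs. All young libraries lay below all others, whatever the level of the ISGs in the library. The old and rejuvenated old libraries overlapped, with medians of 2.33 and 3.00.

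**Figure D5:**
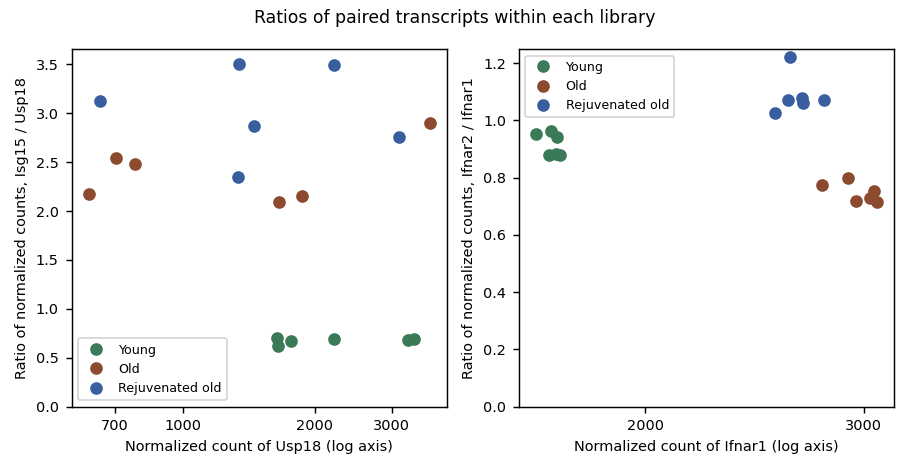
Ratio of normalized counts of Isg15 to Usp18 (left) and of Ifnar2 to Ifnar1 (right) in each library, against the count of the second gene on a log axis, with both vertical axes starting at 0. Young libraries lie at 0.619 to 0.698 on the left at any level of Usp18, and on the right the 3 groups occupy separate bands from 0.716 to 1.22.

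The other genes of the pathway were counted from lists. Of 21 interferon ligands, none reached a mean of 10 and 12 had no read in any library. Ifnb1, the interferon that fibroblasts make, had 28 reads in all 18 libraries together and at most 8 in a library, and Ifng had 9 and at most 3. Counts of this size leave the ligands near the limit of detection.

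Of 15 further receptor and signalling genes, 4 were higher and 5 lower in rejuvenated old against old MSCs (all tested genes: 41.6% called), and 2 were higher and 11 lower in young against old MSCs (all tested genes: 85.7%). Ifngr1, the ligand-binding chain of the interferon gamma receptor, had a mean of 9519 ± 232 (SD) in old MSCs, 16045 ± 1719 in the rejuvenated cells and 2067 ± 85.4 in young MSCs. Its log2 fold change in rejuvenated old against old MSCs was 0.75 ± 0.05 (SE), without overlap. Its partner chain Ifngr2 fell by 0.16, and the kinases Jak2 and Jak1 rose by 0.26 and 0.24, whereas Tyk2 fell by 0.14. Irf5, a transcription factor of myeloid cells, fell by 0.38, and Socs3, a feedback inhibitor, rose by 0.18. Socs1 stood at 0.25 ± 0.12 (adjusted p = 0.111).

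Of 19 tested genes that sense or clear nucleic acids, 4 were higher and 3 lower in rejuvenated old against old MSCs, where 41.6% of all tested genes were called. Nlrc3, a brake on STING signalling, fell by 0.55 and Tlr4, the endotoxin receptor, by 0.26. Rnaseh2a and Rnaseh2c, subunits of RNase H2, rose by 0.32 and 0.20, and the adaptor Traf3 rose by 0.17. Samhd1, a dNTP hydrolase, rose by 0.19 from a mean of 24982 ± 782 in old MSCs, and stood at 3083 ± 186 in young MSCs (-3.02 ± 0.04 in young against old MSCs).

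Of 72 further ISGs tested, 10 were higher and 1 lower in rejuvenated old against old MSCs, against 41.6% of all tested genes called, and 35 were higher and 24 lower in young against old MSCs, against 85.7%. Ifi27l2a, a strongly inducible ISG, had a mean of 99.1 ± 55.6 (SD) in old, 259 ± 86.8 in rejuvenated old and 4767 ± 1584 in young MSCs, and rose by 1.47 ± 0.26 in the rejuvenated cells. The immunoproteasome subunits Psmb8 (0.86 ± 0.16) and Psmb9 (0.72 ± 0.15), which shape peptides for antigen presentation, rose as well, as did Serpina3g (0.87 ± 0.11), Gbp5 (0.87 ± 0.27) and Ifi47 (0.85 ± 0.21). For Psmb8 and Psmb9 the young level was lower than the old (-1.75 and -0.92), while for Ifi27l2a it was higher (5.67). Without old replicate 2 the count was 20 higher and 1 lower, and without both that library and rejuvenated old replicate 1 it was 15 higher and 3 lower. Ifi202b, whose product binds DNA, named here after its values were seen, had a mean of 6649 ± 748 in young and 1.44 ± 1.45 in old MSCs. In rejuvenated old replicate 1 it stood at 165, against at most 5.79 in the other 5 libraries of that group.

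Of 12 stromal markers 3 rose and 5 fell in rejuvenated old against old MSCs, where 21.0% of all tested genes rose and 20.6% fell. Ly6a, the Sca-1 antigen and itself a gene that interferon can induce, had 5629 to 7488 in old, 11169 to 15051 in rejuvenated old and 19881 to 33910 in young MSCs, and rose by 1.07 ± 0.10. Cxcl12 rose by 0.27, while Col1a1, Vcam1, Lepr and Cd44 fell by 0.41, 0.36, 0.31 and 0.30. Of the macrophage markers 1 rose and 1 fell in this comparison, and 1 of the 2 endothelial markers tested fell. Lyz2 stood at -0.06 ± 0.07 and Csf1r at 0.06 ± 0.07, and neither passed the test.

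Members that are neighbours on a chromosome did not all differ alike. Ifitm2, Ifitm1, Ifitm3 and Irf7 lie within chr7:140954837-141266499 and stood at 0.84, 0.28, 1.13 and 2.97 in young against old MSCs. Oasl2 and Oasl1 (chr5:114896926-114937911) stood at 1.41 and 4.15, and Mx1 and Mx2 (chr16:97447035-97560901) at 4.50 and 1.99. Ifit2, Ifit3 and Ifit1 (chr19:34550550-34650009) stood at 1.94, 1.20 and 0.67, whereas Gbp7, Gbp3 and Gbp2 (chr3:142530336-142638008) stood close together. Members of the IFIT, OAS, IFITM, GBP, IRG and TRIM30 families have close paralogs, so reads shared with near-identical copies leave their values less certain. Of the 39 members with a promoter entry, the 20 with an ISRE match had a median log2 fold change of 0.50 in young against old MSCs and the 19 without had 0.84, and in rejuvenated old against old MSCs the medians were 0.13 and 0.10.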

How the data were processed

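The authors sequenced 18 libraries (stranded poly(A) RNA), aligned reads to mm10 with HISAT2 and used StringTie, featureCounts and DESeq2, per the study's methods and the submitters' processing notes. Versions and the strand setting of the counting are not given in the sources used here. The deposited signal is the read count per gene divided by the authors' DESeq2 size factor of the library. Dividing by the smallest step of each library gave whole reads for 100% of values within 0.01 read. Of 27179 genes, 25275 matched RefSeq (GRCm38.p6). Totals of 22936251 to 29559194 reads per library limit precision through counting error only for the lowest members.

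Main test: limma 3.58.1 (R 4.3.3) on log2(normalized count + 1) with trended prior variance, 3 groups in 1 fit, genes with a mean of at least 10, Benjamini-Hochberg adjustment over 14353 genes, threshold 0.05. A log2 fold change on this scale understates the change of low genes. Alternatives were other pseudocounts, filters and scalings, a fit of 2 groups, a single prior variance, a replicate block, the chromosome median removed, each library left out, and edgeR 4.0.16 and DESeq2 1.42.0 on the recovered reads. Leaving out 2 libraries together was chosen after seeing the data. Scripts were tested on simulated data. The members and lists were chosen with earlier results of these data known.

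All members may be named. Library values are given for the called members with the largest absolute log2 fold change (up to 8) in rejuvenated old against old and in young against old MSCs, and for Stat2, Irf9, Irf7, Isg15, Usp18, Ifnar1, Ifnar2 and Bst2. From each list up to 6 called genes with the largest change in rejuvenated old against old MSCs are named, with Jak1, Tyk2, Ifnb1, Ifng, Ifngr1, Ifngr2 and Socs1. The result of 1 gene is not reported here. Ptprc, Adgre1, Lyz2, Csf1r and Ifi202b were named after their values were seen.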

Additional observations from a re-analysis of the deposited data

Results flagged for a closer look

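Of 147 combinations of a member and a group of 6 libraries, 22 had a highest library whose gap to the next, divided by the whole range of the group, was above Dixon's critical value for groups of this size. Chance gives about 5% of such groups, and members that move together are not independent. Old replicate 2 accounted for 17 of them, with normalized counts of 2399 for Irf7, 2246 for Ifih1, 752 for Zbp1, 11281 for Ifit3, 881 for Oas1a, 303 for Oas2, 132 for Oas3, 7320 for Oasl2, 9771 for Bst2, 10642 for Isg15, 480 for Rsad2, 1360 for Dtx3l, 1855 for Trim30a, 1715 for Gbp2, 2899 for Gbp3, 1533 for Ifi44 and 9523 for Lgals3bp. The other old libraries reached at most 1154 for Irf7, 4021 for Isg15 and 4167 for Bst2. Rejuvenated old replicate 1 accounted for 4, with 56.6 for Oasl1, 70.0 for Mx1, 245 for Rsad2 and 465 for Cmpk2, where the next library stood at 20.0 for Oasl1 and 17.9 for Mx1. Rejuvenated old replicate 5 was apart for Irf1, at 2498 against at most 2160 in the other 5.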

How the results depend on the processing

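The counts of called members kept within 1.5 times of the reported ones under all settings run, except that of rejuvenated old against old MSCs, which was 16 without old replicate 2. Leaving out each library in turn gave 7 to 16 called members in that comparison, 27 to 39 in young against old and 27 to 34 in rejuvenated old against young MSCs, and the other alternatives gave 6 to 7, 26 to 32 and 26 to 34. The median member log2 fold change ranged from -0.00419 (without old replicate 6, where its sign turned) to 0.39 in rejuvenated old against old and from 0.40 to 0.80 in young against old MSCs with libraries left out. For the further ISGs the counts were 10 to 21 and 56 to 60, with 18 in rejuvenated old against old MSCs when both old replicate 2 and rejuvenated old replicate 1 were left out. Among results called in the reported or the altered fit, those that turned their sign did so with the chromosome median removed, namely Ifnar2 (0.24), Ifitm1 (-0.21), Parp9 (0.53) and Dtx3l (0.13) in young against old and Ifnar1 (-0.11) in rejuvenated old against young MSCs. Members called in neither fit turned too, among them Parp14 (0.20 in young against old MSCs), Parp9 (-0.27) and Dtx3l (-0.22, both in rejuvenated old against young MSCs). The cause was not tested. With the replicate block 7, 30 and 28 members were called in rejuvenated old against old, young against old and rejuvenated old against young MSCs. Deviations of same-numbered libraries correlated at -0.152 to 0.0736, so no pairing by number was visible. Such correlations cannot show whether same-numbered samples were handled together. Depth limits Mx1, Oasl1 and the interferon ligands, which went down to a few reads per library.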
